A study of Sus scrofa with 48 samples.

Results

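Galanin-like peptide (GALP) and galanin (GAL) are members of one family of neuropeptides. They were followed in gluteus medius (GM), liver and kidney of Large White pigs, each with the single probe on the array that carries its RefSeq accession. The 2 probes are among 43603 different probes on the array, of which 2628 could be named through RefSeq. They are A_72_P035376 for GALP and A_72_P077846 for GAL, and the genes are 2 of 1862 with a named probe. The array also holds 4803 probes with Ensembl transcript accessions, and these were not paired with genes here. The genes were chosen for their levels in these same arrays, which differ between tissues, between lines of pigs and between number series. Those differences are therefore given as descriptions, without a test.

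RNA came from 16 F2 pigs, and each pig gave 1 array per tissue. The C offspring (F2 C, n = 8) descend in the male line from F0 boars on a standard diet. The E offspring (F2 E, n = 8) descend from F0 boars whose standard diet was enriched in methylating micronutrients, namely betaine, choline, methionine, folate and B vitamins. F1 boars and all F2 pigs of both lines received standard diets, so no F2 pig ate the enriched diet. Each line had 4 barrows and 4 females, and the identity numbers of the pigs fall into a lower and an upper series with 4 pigs per line in each. Pigs are named here by line and by the replicate number of their liver array, with 1 to 4 in the upper and 5 to 8 in the lower series. The F1 boars that sired the lines and the sows they were mated to differed between lines, and the labels give neither sire nor litter of a pig. Line and family therefore cannot be told apart. Ages of the F2 pigs are not given in the sources used here.

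Galanin is a peptide of neurons and endocrine cells that acts through the G protein-coupled receptors GALR1, GALR2 and GALR3. Galanin-like peptide shares the stretch of galanin that binds these receptors, is made mainly by neurons of the hypothalamic arcuate nucleus, and is known for its links to leptin, feeding and reproduction. Both are cut from longer precursors by the proteases of the secretory pathway. Neither is a classical product of hepatocytes, of kidney tubules or of muscle fibres.

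All values below are log2 signals after quantile normalization over the 16 arrays of a tissue, unless another scale is named. A spot was counted as detected where the image software had marked it as well above its local background. Between 18948 and 36804 of 43803 probe spots were detected per array, and no spot was saturated. In GM the local background of the F2 E arrays (median 26 to 28) lay above that of the F2 C arrays (14 to 24), whereas the ranges overlapped in liver and kidney. With all 48 arrays normalized together, the muscle creatine kinase CKM averaged 18.76 in GM, albumin (ALB) 18.92 in liver and the phosphate transporter SLC34A1 16.03 in kidney, each far above the other tissues. In samples of whole tissue, fewer cells of one type and less RNA per cell cannot be told apart.

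GALP was detected mainly in liver. In liver its spot was detected in 8 of 8 F2 C and 4 of 8 F2 E pigs, in kidney in 2 of 8 F2 C and 0 of 8 F2 E pigs, and in GM in 0 of 16 pigs. The 2 kidneys with a detected spot belonged to F2 C pigs 7 and 1. With all 48 arrays normalized together, GALP in F2 C liver averaged 7.94. This was at least 4.40-fold above F2 C GM, at least 3.54-fold above F2 E GM and at least 5.05-fold above F2 E kidney, where no array had the spot above background. These folds are lower bounds, because each dim array was set at the higher of its own spot and the lowest signal among its detected probes. The measured means of those dim groups on the same scale were 5.41, 5.47 and 5.44. F2 E liver averaged 6.15 ± 0.82 and F2 C kidney 5.40 ± 0.12 (SD, n = 8 each). By these measured means F2 E liver stood between F2 C liver and the other tissues. With dim arrays set at the bound, F2 E liver averaged 6.17 and F2 E GM 6.11, so that the order of these groups is not resolved.

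In GM the F2 C pigs ran from 5.00 to 5.31 (median 5.15) and the F2 E pigs from 5.00 to 5.73 (median 5.10). In kidney the F2 C pigs ranged from 5.13 to 5.59 (median 5.23) and the F2 E pigs from 5.07 to 5.64 (median 5.35). The lines overlapped in both tissues, and no fold is given for values at the background.

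**Figure D1:**
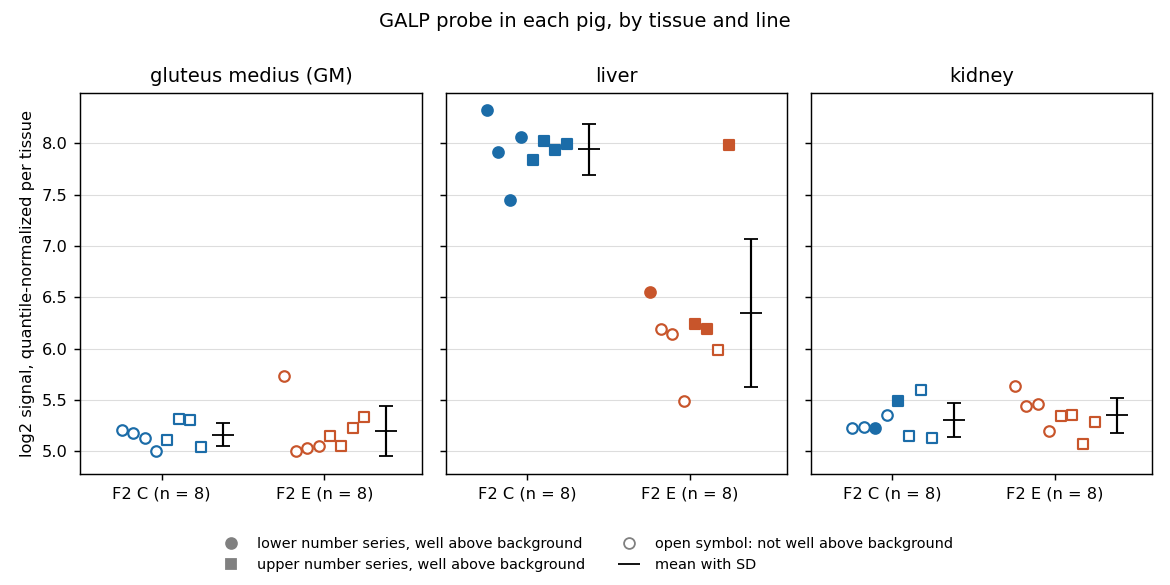
Log2 signal of the GALP probe in each of 16 pigs (y axis) for F2 C and F2 E in GM, liver and kidney. Circles are pigs of the lower and squares pigs of the upper number series, open symbols were not well above background, and bars give the mean with SD (n = 8). In liver all F2 C pigs lie at or above 7.44, and 7 of 8 F2 E pigs lie at or below 6.55.

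In liver GALP was lower in F2 E than in F2 C pigs. The 8 F2 C pigs lay between 7.44 and 8.32 with a median of 7.96 and a mean of 7.94 ± 0.25 (SD, n = 8). The F2 E pigs lay between 5.49 and 7.98 with a median of 6.19 and a mean of 6.35 ± 0.73 (SD, n = 8). Before normalization the lowest F2 C spot read 195 and the highest F2 E spot 162, so that the lines did not overlap on that scale. The median spot of a liver array read from 88 to 167, so unnormalized readings also carry the brightness of each array.

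The F2 C pigs were tightly grouped, and 7 of 8 F2 E pigs lay below the lowest of them. The exception was F2 E pig 3, a female of the upper series, whose 7.98 fell among the F2 C pigs and whose spot read 162 before normalization. F2 E pigs 5, 4 and 1 were the only others of their line with a detected spot, at 6.55, 6.24 and 6.19. F2 E pig 8 was the lowest at 5.49.

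The mean difference F2 E minus F2 C was -1.59, which is 3.02-fold higher in F2 C. Without F2 E pig 3, the other 7 F2 E pigs averaged 6.11 ± 0.32 (SD, n = 7), the gap to the lowest F2 C pig was 0.89, and F2 C was 3.55-fold higher. The spot was detected in only 4 of 8 F2 E livers, so the size of both folds is limited by the background. In this liver contrast 27 of 28823 probes, or 0.0937%, passed an adjusted p below 0.05 in limma, and 705 probes, or 2.45%, had an unadjusted p below 0.01. GALP was picked from this same contrast, so its place in it carries no weight.

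Within the lower number series the difference was -1.84 and within the upper series -1.35. The 4 F2 C pigs of the lower series averaged 7.94 and those of the upper series 7.95, so the F2 C level was alike in both. The F2 E pigs averaged 6.09 in the lower and 6.60 in the upper series, which holds F2 E pig 3. Among all probe spots of its array, GALP ranked between the percentiles 57.1 and 66 in F2 C livers and between 5.6 and 62.7 in F2 E livers. In liver 2 slides held both lines, 2 pigs of each. On the slide of barrows the F2 C pigs averaged 8.12 and the F2 E pigs 6.37, a difference of -1.75. On the slide of females they averaged 7.75 and 5.82, a difference of -1.94.

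Adipocyte markers were read beside GALP in liver, as summed linear signals after normalization over 48 arrays. The 5 measured adipocyte markers of 6 summed to between 1310 and 1882 in F2 C and to between 1723 and 2728 in F2 E. The adipocyte sums were higher in F2 E with some overlap. They were carried by FABP4 and LIPE, whose line differences in liver were 0.89 and 0.42. In limma their unadjusted p was 0.00227 and 0.00258, and their adjusted p 0.266 and 0.275. LEP differed by 0.02 and ADIPOQ by -0.13. The part of these markers in the GALP level was not tested.

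The size of the difference moved with the handling of the background. With the background-corrected signal of the image software, scaled to the 75th percentile of each array, F2 C was 8.11-fold higher, and with the normexp correction (offset 50) 1.65-fold higher. The direction was the same under each processing shown in the plot of line differences.

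**Figure D2:**
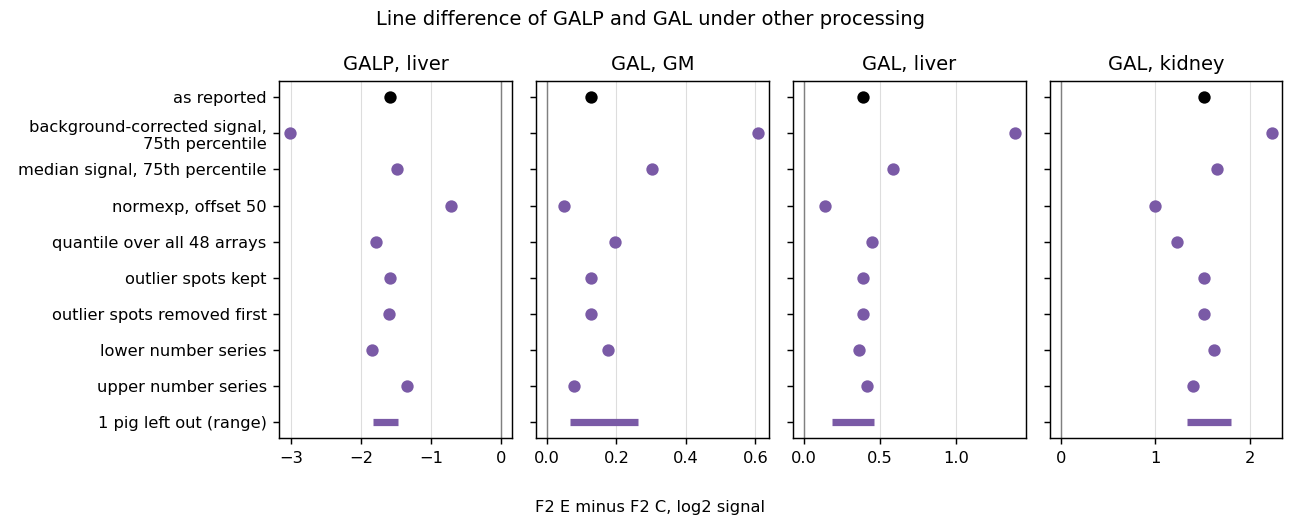
Line difference F2 E minus F2 C (x axis, log2 signal) of GALP in liver and of GAL in GM, liver and kidney. Each row is another way to process or restrict the arrays, the black point is the value as reported, and the bar spans the values with 1 pig left out. GALP in liver stays below 0, between -3.02 and -0.72, and GAL in kidney stays above 0, between 1.00 and 2.23.

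The probes that followed GALP most closely were looked for among 28278 probes present in liver with a value on all 16 arrays. The first was A_72_P421739, with Pearson's r = 0.95 and Spearman's rho = 0.75 over 16 livers. It carries the accession that the study's methods give for MBOAT7, an acyltransferase that puts arachidonic acid into phosphatidylinositol. The values given under this name are the signal of that probe alone, and the real-time PCR of this gene in the study was not analysed here, so that the liver signal is not shown here to be MBOAT7 transcript. The 16 livers fell into 2 clusters, 1 with the 8 F2 C pigs and F2 E pig 3 and 1 with the other 7 F2 E pigs, and the correlation rests on the distance between them. Within F2 C r was 0.28 (n = 8) and within those 7 F2 E pigs -0.40, both given as descriptions. The next were A_72_P298449 (r = 0.88), A_72_P017951 (r = 0.88), A_72_P280999 (r = 0.87) and A_72_P174531 (r = 0.86), which could not be named here. GALP and MBOAT7 had the only r above 0.9.

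In liver the MBOAT7 probe lay between 10.12 and 10.79 in the F2 C pigs (mean 10.49 ± 0.28, SD, n = 8). In F2 E it lay between 7.91 and 10.67 (mean 8.43 ± 0.91, SD, n = 8). Again 7 of 8 F2 E pigs lay below all F2 C pigs, the highest of these 7 at 8.37, and again F2 E pig 3 stood among the F2 C pigs at 10.67.

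F2 E pig 3 also had the highest MBOAT7 signal of its line in the other tissues. In GM it read 8.28, inside the F2 C range of 7.91 to 8.68, while the other F2 E pigs did not exceed 6.82. In kidney it read 10.24, just under the lowest F2 C pig at 10.33, while the other F2 E pigs did not exceed 9.44. GALP itself was not above background in GM or kidney of this pig, so only the liver shows both genes. In the RefSeq annotation of the pig assembly Sscrofa11.1 both genes are on chromosome 6, with 211 annotated entries between them. This position was looked up after the likeness was seen.

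**Figure D3:**
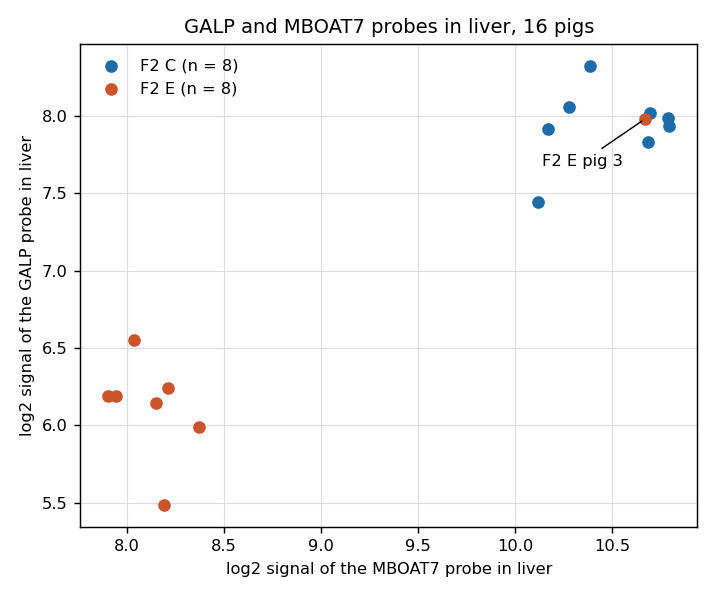
Log2 signal of the GALP probe (y axis) against the MBOAT7 probe (x axis) in liver, 1 point per pig, F2 C and F2 E with n = 8 each. F2 E pig 3 lies at 10.67 and 7.98 among the F2 C pigs, and the other 7 F2 E pigs lie at or below 8.37 and 6.55.

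Genes that flank GALP were read from the same annotation. The 3 nearest on each side with a named probe were PPP2R1A, TNNT1 and TNNI3 on one side and TAS1R3, FAM213B and RPL22 on the other. The nearest of these, TNNI3 (cardiac troponin I), is 54 entries away. In liver an adjusted p below 0.05 in limma was reached by 0.0937% of all probes and by 0 of the 10 tested flanking probes. An unadjusted p below 0.01 was reached by 2.45% of all and by 0 of these 10. Their line differences lay between -0.30 and 0.26, against -1.59 for GALP, and their correlations with GALP between -0.12 and 0.47. In GM the taste receptor gene TAS1R3 had a difference of 0.62 at an unadjusted p of 0.00372 and an adjusted p of 0.12 in limma.

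GAL differed from GALP in where it was seen. Its spot was detected in 15 of 16 kidneys, 7 of 16 GM samples and 6 of 16 livers. With all 48 arrays normalized together, the mean was 7.71 ± 0.65 in F2 E kidney and 6.48 ± 1.01 in F2 C kidney. GM gave 6.59 ± 0.60 in F2 E and 6.39 ± 0.54 in F2 C, and liver gave 6.06 ± 0.70 in F2 E and 5.61 ± 0.40 in F2 C (SD, n = 8 each). In this order F2 E kidney stood clear of the next group by more than either SD. The neighbours F2 E GM, F2 C kidney, F2 C GM, F2 E liver and F2 C liver each lay within the larger SD of the next.

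**Figure D4:**
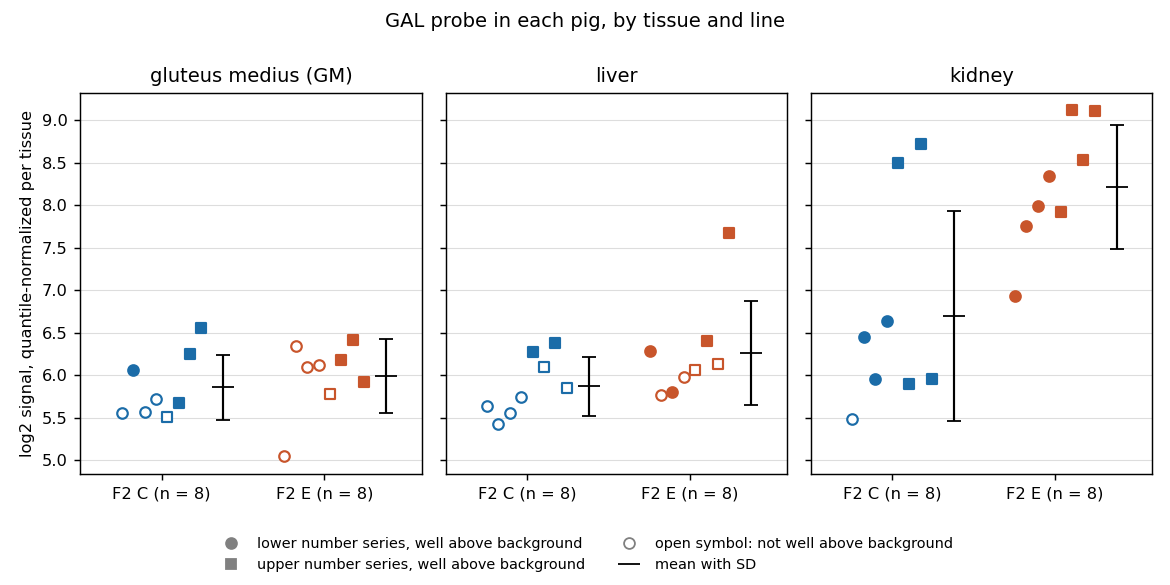
Log2 signal of the GAL probe in each of 16 pigs (y axis) for F2 C and F2 E in GM, liver and kidney, with symbols as in the plot of GALP and bars for the mean with SD (n = 8). In kidney 6 of 8 F2 C pigs lie below the lowest F2 E pig, and F2 C pigs 1 and 3 lie at 8.49 and 8.72 within the F2 E range.

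In kidney GAL was higher in F2 E than in F2 C pigs. The F2 C pigs lay between 5.49 and 8.72 with a median of 6.20 and a mean of 6.70 ± 1.23 (SD, n = 8). The F2 E pigs lay between 6.93 and 9.12 with a median of 8.16 and a mean of 8.21 ± 0.73 (SD, n = 8). The lines overlapped through F2 C pigs 1 and 3, at 8.49 and 8.72, both of the upper series. The other 6 F2 C pigs did not exceed 6.64 and lay below every F2 E pig after normalization. Before it their spots read 49 to 73, and F2 E pigs 5 and 7 read 44 and 69, so that the unnormalized spots of these pigs were not apart. The other 6 F2 E spots read 204 to 917.

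The difference F2 E minus F2 C was 1.51, or 2.85-fold, and 1.62 and 1.40 within the lower and upper number series. In the lower series F2 C averaged 6.13 and F2 E 7.75, and in the upper series 7.27 and 8.67. Over both lines the upper series exceeded the lower by 1.02, or 2.03-fold, and the same step was 0.59 in liver and 0.22 in GM. Across the kidney contrast 4 of 33664 probes, or 0.0119%, passed an adjusted p below 0.05 in limma, and 338 probes, or 1.00%, had an unadjusted p below 0.01. In kidney each line lay on 2 slides, 1 for each number series, and no slide held both lines, so that no line difference within a slide can be had and slide and series cannot be told apart.

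GAL is made by neurons and in adrenal medulla, and a list of adrenal markers was read beside it. CYP11B1, TH and DBH of this list had no named probe. Of 11 adrenal markers 8 had a named probe, and their summed linear signal in kidney, after normalization over 48 arrays, ranged from 560 to 640 in F2 C and from 537 to 645 in F2 E. By their most often detected probe, CYP11A1, HSD3B1 and PNMT were detected in 16 of 16 kidneys, CHGB in 15, CYP21A2 in 13, STAR in 7, CYP17A1 in 4 and CHGA in 1. The adrenal sums overlapped between the lines. The same sum was higher in GM, from 871.5 to 1909 in F2 C and from 940 to 1933 in F2 E. In liver it was higher too, from 1624 to 3114 in F2 C and from 1225 to 3227 in F2 E. The sum therefore cannot show how much adrenal tissue a kidney sample held. Of nerve markers, UCHL1 averaged 10.61 ± 0.23 in F2 C and 10.55 ± 0.37 in F2 E kidney, and the brightest probe of STMN2 6.51 ± 0.21 and 6.54 ± 0.16 (SD, n = 8 each). The 5 measured liver markers of 6 summed in kidney to between 9287 and 22977 in F2 C (median 15364) and to between 9593 and 75840 in F2 E (median 28130). Among them transferrin (TF) averaged 11.36 ± 0.93 in F2 C and 12.26 ± 0.41 in F2 E (SD, n = 8 each), with an unadjusted p of 0.0138 and an adjusted p of 1 in limma. The line differences of the other liver markers in kidney went both ways. They were 0.39 for APOA1 and 0.45 for TTR, -0.76 and -0.33 for the ALB probes, and 0.0024 and -0.10 for the SERPINA1 probes. The part of these markers in the GAL level was not tested.

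In liver GAL was near the background. The F2 C pigs lay between 5.42 and 6.37 with a median of 5.80 (mean 5.87 ± 0.34, SD, n = 8, spot detected in 2). The F2 E pigs lay between 5.77 and 7.68 with a median of 6.10 (mean 6.26 ± 0.61, SD, n = 8, spot detected in 4). F2 E pig 3, the one with the high GALP, had the highest GAL as well, at 7.68, and the next F2 E pig was at 6.40. The mean difference of 0.39 was smaller than the SD among F2 E pigs. GALP and GAL did not follow each other over the 16 livers (r = 0.04, rho = -0.17, a description).

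In GM the F2 C pigs lay between 5.51 and 6.55 with a median of 5.70 (mean 5.86 ± 0.38, SD, n = 8, spot detected in 4). The F2 E pigs lay between 5.05 and 6.42 with a median of 6.11 (mean 5.99 ± 0.43, SD, n = 8, spot detected in 3). The lines overlapped almost fully, with a mean difference of 0.13. On the slide of the lower-series F2 E pigs the 4 spots read 37.5 to 100 over a local background of 24.5 to 32 and none was detected, while an F2 C spot reading 48.5 over a background of 22 was. In this tissue 197 of 25625 probes, or 0.769%, passed an adjusted p below 0.05 between the lines in limma, and 1464, or 5.71%, an unadjusted p below 0.01. As in kidney, no GM slide held both lines.

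Over the 16 pigs GAL in liver and GAL in kidney had r = 0.64 and rho = 0.74. GAL in GM had r = 0.33 and rho = 0.38 with kidney, and r = -0.03 and rho = 0.085 with liver. These pigs share line and number series, both of which go with GAL in kidney, and the values are descriptions.

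Of 23370 probes present in all 3 tissues, centred within each tissue, A_72_P172331 followed GAL most closely over 48 arrays (r = 0.71, rho = 0.72). It could not be named here, nor could A_72_P432449, A_72_P197672, A_72_P100691 and A_72_P264707, whose r lay between 0.59 and 0.55. In kidney the r of A_72_P172331 with GAL was 0.87, over pigs that fell into a low and a high set, against 0.58 in liver and 0.07 in GM. In kidney it read 7.37 to 8.26 in 6 F2 C pigs and 12.84 and 12.60 in F2 C pigs 1 and 3, the same 2 F2 C pigs that were high in GAL. All 8 F2 E pigs read between 10.77 and 13.30. The split of this probe was not particular to kidney. In liver the same 6 F2 C pigs read 6.42 to 7.18, and F2 C pigs 1 and 3 read 10.07 and 9.93. The F2 E livers read 9.43 to 10.40. In GM F2 C pigs 1 and 3 were the highest of their line, at 7.90 and 7.02, and F2 E read 6.45 to 8.59.

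On chromosome 2 the 3 genes with a named probe nearest to GAL were CD81, FADD and CPT1A on one side and PPP1CA, KDM2A and PC on the other. CPT1A, the mitochondrial carnitine palmitoyltransferase of liver, is separated from GAL by 1 entry, FADD by 19 and CD81 by 48. On the other side PPP1CA, KDM2A and PC are 36, 44 and 50 entries away. In kidney 0 of their 8 probes passed either limit, against 0.0119% and 1.00% of all tested probes. Differences of these 8 lay between -0.17 and 0.20, against 1.51 for GAL. In GM 1 of 7 tested probes passed, where 0.769% of all tested probes had an adjusted p below 0.05 in limma. The tetraspanin gene CD81 was higher in F2 E (10.52 ± 0.36) than in F2 C (9.82 ± 0.28, SD, n = 8 each), with an adjusted p of 0.0428 in limma, on slides that each held 1 line.

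Sex was not used to choose the genes and was tested in limma with line in the model, beside an exact two-sided permutation test of the sex labels within each line. GALP in liver averaged 7.16 ± 0.94 in barrows and 7.13 ± 1.07 in females (SD, n = 8 each). The difference was 0.03 (SE 0.25), with an adjusted p of 0.972 in limma and an exact permutation p of 0.948. Barrows minus females gave -0.31 for GAL in GM (SE 0.18), -0.15 in liver (SE 0.23) and -0.40 in kidney (SE 0.46). None of these 3 differences passed, with adjusted p of 0.998, 0.802 and 1 in limma and exact permutation p of 0.138, 0.647 and 0.438. The smallest p this permutation can give is 0.000408. In liver the lower-series barrows and females lay on separate slides, so that sex and slide cannot be told apart in that series. Neither test allows for this. Between barrows and females 31 probes of GM (0.121%), 35 probes of liver (0.121%) and 31 probes of kidney (0.0921%) passed an adjusted p below 0.05.

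No dependence of the line differences on sex was detected in limma. The interaction of line and sex was -0.27 (SE 0.52) for GALP in liver, and 0.02 (SE 0.37), -0.25 (SE 0.47) and -0.32 (SE 0.95) for GAL in GM, liver and kidney. The adjusted p in limma was 0.946 or higher for all 4. No probe of any tissue passed an adjusted p below 0.05 for this term in limma (0% in each). At an unadjusted p below 0.05 there were 890 probes for GM, 506 for liver and 884 for kidney.

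The rest of the galanin system was read from lists of 72 genes, of which 31 had a named probe. Of the receptors and related ligands, GALR1, GALR2, GALR3, SPX and KISS1 had no named probe, so that the receptors of both peptides were not analysed here. KISS1R, the receptor of kisspeptin and a relative of the galanin receptors, was detected in 15 livers, 16 kidneys and 0 GM samples. Its line difference was -0.17 in liver (unadjusted p 0.235, adjusted p 0.795 in limma) and -1e-04 in kidney (adjusted p 1).

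Of hypothalamic feeding and energy genes, 20 of 41 had a named probe, of which GM had 6 present, liver 9 and kidney 13. BDNF, a neurotrophin that restrains food intake, was the only pathway gene with an unadjusted p below 0.01 in any tissue. In liver it was lower in F2 E (6.24 ± 0.30) than in F2 C (6.72 ± 0.12, SD, n = 8 each), by -0.48 (SE 0.12) with an unadjusted p of 0.000743 and an adjusted p of 0.175 in limma. HCRT, the orexin precursor, had the lowest p of the lists in GM. One of its probes averaged 8.99 ± 1.62 in F2 C and 7.88 ± 0.26 in F2 E (SD, n = 8 each), with an unadjusted p of 0.0424 and an adjusted p of 0.29 in limma, and its other probe differed by 0.13. LEP (leptin), NPY1R, GHRL and CCK were present in all 3 tissues without passing either limit.

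Of genes that process peptide precursors, CPE was present in GM, PCSK2, CPE and SCG5 were present in kidney and PCSK2 and SCG5 in liver. PCSK2, a prohormone convertase, had the lowest p of the lists in kidney, with a difference of -0.29 at an unadjusted p of 0.169 and an adjusted p of 1 in limma. Of signalling genes below the galanin receptors, GNAI2, GNAI3, GNAQ, GNA11, JAK2 and STAT3 were present in all 3 tissues. GNAI3 in GM differed by -0.24 (unadjusted p 0.0795, adjusted p 0.369 in limma), and the 3 STAT3 probes in liver by -0.24 to -0.38 (adjusted p 0.64 or higher).

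Taking the 4 lists as a whole, 0 of 16 probes of GM, 0 of 21 probes of liver and 0 of 26 probes of kidney passed an adjusted p below 0.05 between the lines in limma. At an unadjusted p below 0.01 the counts were 0, 1 and 0. Over all tested probes the shares were 0.769%, 0.0937% and 0.0119% at the adjusted limit. At the unadjusted limit they were 5.71%, 2.45% and 1.00%. With lists this short, these counts cannot be told apart from those shares. The median line difference over the listed probes was -0.02 for GM, -0.08 for liver and 0.01 for kidney. Over all tested probes it was -0.02, -0.02 and -0.01.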

How the data were processed

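Each of 48 Agilent porcine arrays (16 per tissue, 1 colour) held RNA of 1 tissue of 1 F2 pig. The authors scanned the arrays and deposited for each spot the intensity of its median pixel, local background and background-corrected signal, not normalized between arrays. The file headers name Agilent Feature Extraction 10.5.1.1, and the paper's methods name another version. Deposited flags mark other properties of a spot (well above background, outlier, saturated). Result tables of each tissue, deposited as well, hold log2 ratios, p-values and 48 columns of normalized signals in all, whose names fit a sample in each tissue. These tables were not used.

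The 1417 control spots were removed from the 45220 spots of an array. Median intensities were quantile-normalized within a tissue and put on the log2 scale. Outlier spots were then set to missing, and spots of a probe were averaged. As in the study, presence needed a linear signal over 25 that was well above background in 50% or more of the arrays of 1 line. At least 2 arrays per line were required. Probes were tested with lmFit and eBayes of limma 3.58.1 in R 4.3.3, with Benjamini-Hochberg adjustment over the present probes of the tissue, after a test on simulated data. A RefSeq gene table of Sscrofa11.1 gave names for 2628 probes and the order of genes. The array's own genome build is not given in the sources used here, and no coordinates are given.

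Members and lists were chosen with earlier results of these data known. Named genes were the members, called genes of the lists, the 3 lowest p per tissue, the 3 nearest genes on each side with a probe and the 5 probes most correlated with each member. The sample labels give groups and replicate numbers. In each line the study used fewer sows and fewer F1 boars than the pigs sampled here. Some pigs of a line therefore shared a dam, and some shared a sire. Which pigs these were is not given, and the main fits do not allow for it. The p-values therefore measure the spread between these partly related pigs, not between independent families. The precision is limited by the number of arrays. Alternatives changed the signal, background correction, scaling, outlier and presence rules, slides, number series, replicate block and test, and left out each pig. The planned normexp correction used mean signals, which the files used here do not hold. It was replaced by median signals after the files were seen. Slide values for the members and the alternatives of the interaction were also added then. Of the marker lists, the one for nerve is reported in part.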

Additional observations from a re-analysis of the deposited data

Results flagged for a closer look

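Within each group of 8 pigs, the gap of the highest or lowest pig to its neighbour was set against the range of the group. In 4 of 12 groups the ratio exceeded Dixon's critical value for 8 samples. The ratio served only to flag pigs and is not a test, because the genes were chosen from these values. The flags fell on F2 E pigs 3 and 5, each for both genes, so they are not independent. GALP in liver of F2 E pig 3 was 7.98, with the next pig of its line at 6.55 (ratio 0.573). GAL in liver of the same pig was 7.68, with the next at 6.40 (ratio 0.669). GALP in GM of F2 E pig 5 was 5.73, not well above background, with the next at 5.33 (ratio 0.552). GAL in GM of that pig was 5.05, also not well above background, with the next at 5.78 (ratio 0.538).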

How the results depend on the processing

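The line difference of GALP in liver stayed below 0 and that of GAL stayed above 0 under each alternative that was run. Scaling to the 75th percentile of the background-corrected signal gave -3.02 for GALP in liver, and 1.39 and 0.61 for GAL in liver and GM. The normexp correction gave -0.72 for GALP in liver. With 1 pig left out the line difference was -1.83 to -1.47 for GALP in liver, and 0.07 to 0.26, 0.19 to 0.46 and 1.34 to 1.80 for GAL in GM, liver and kidney. The sex difference of GAL in liver passed (-0.89, adjusted p 0.0435 in limma) with the median signal scaled to the 75th percentile, where the median over all probes was -0.14, and in no other setting. In liver this sex contrast is in part a contrast between slides. Sex differences near 0 changed sign. For GALP in liver they became -0.35 (median signal at the 75th percentile), -0.0047 (normexp), -0.40 (upper series and slide as a fixed block) and -0.11 (slide as a random block). For GAL in liver the lower series gave 0.0072. With the replicate block the sex difference of GAL was 0.0232 in GM and 0.0804 in liver, the interaction in kidney was 0.25, and no call changed. The line differences with the block were -1.59 for GALP in liver, and 0.13, 0.39 and 1.51 for GAL. Pairs were formed by the replicate numbers of each tissue, which in GM and kidney can differ from the liver numbers used as names. Same-numbered pigs deviated together in 2, 6 and 3 of 8 pairs (r above 0.1) for GM, liver and kidney. Of the F2 C pigs 1, 3 and 1 of 8 correlated best with their own number. In liver the same-numbered pigs 5 to 8 shared slide, sex and number series. In GM and kidney no slide held both lines. The part of shared slides in the liver counts was not tested. The labels do not call the replicate numbers pairs, and the main fits use no pairing. The interaction of line and sex changed sign for GAL in GM (-0.28 background-corrected, -0.25 median signal at the 75th percentile, -0.58 lower series), for GALP in liver (0.21 background-corrected, 0.19 lower series), for GAL in liver (0.25 lower series) and for GAL in kidney (0.0275 background-corrected, 0.0192 median signal at the 75th percentile), none past the threshold. With 1 pig left out it ranged from -0.15 to 0.29 for GAL in GM, -0.58 to 0.25 for GALP in liver, -0.45 to 0.18 for GAL in liver and -0.96 to 0.31 for GAL in kidney. Sex differences then ranged from -0.39 to -0.19 for GAL in GM, -0.10 to 0.28 for GALP in liver, -0.23 to 0.0578 for GAL in liver and -0.71 to -0.12 for GAL in kidney. Of the pathway lists in GM, 1 gene passed an unadjusted p below 0.01 without a presence filter (PCSK1), 2 did within the lower series (HCRT, LEP, with 1 of these, HCRT, also past an adjusted p below 0.05), and 0 to 1 did with a pig left out (HCRT without F2 C pig 3 or pig 4). In liver the count was 0 with the median signal at the 75th percentile, with probes above background on all arrays, within the upper series and on the slide of barrows, and 1 to 2 with a pig left out (STAT3 added without F2 E pig 7). In kidney it was 1 without the filter (GNRH1). The causes were not tested. The planned normexp correction of mean signals and the authors' normalized values were not run. GALP in GM and kidney and most GAL spots in liver and GM lie at the background, where signal limits what can be compared.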
